A study of Mus musculus with 2 samples.

Results

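Chemokines and chemokine receptors were read across the colon of mice with and without EP4, the prostaglandin E2 receptor encoded by Ptger4, in the intestinal epithelium. The members were all genes of the chemokine ligand families (Ccl, Cxcl, Xcl1 and Cx3cl1) and of the chemokine receptor families (Ccr, Cxcr, Xcr1, Cx3cr1 and the atypical receptors Ackr1 to Ackr4) to which at least 1 probe was matched through its RefSeq accession. They numbered 58 genes of 22909, namely 35 ligands and 23 receptors, and were read by 74 of the 56593 gene probes on each array. The reference names 67 such genes, and the other 9 had no probe matched by accession: Ccl16-ps, Ccl19-ps1, Ccl19-ps2, Ccl19-ps3, Ccl21b, Ccl21c, Ccl21d, Ccl27b and Cxcl11.

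The study used 1-colour Agilent mouse expression arrays on RNA of whole colon, with 2 arrays in all and 1 per genotype. One array held Villin-Cre mice, the controls, which carry the Cre recombinase as well, and the other held EP4 cKO mice, which are Villin-Cre; EP4flox/flox. The Villin promoter drives Cre in intestinal epithelial cells, and other cells of the colon are not targeted. All mice were C57BL/6, the methods give an age of 8 weeks, and the RNA of each array came from 3 pools of colon combined, so the spread between mice cannot be given and no test was possible.

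Chemokines are small secreted proteins that attract leukocytes by binding G protein-coupled receptors on their surface. They are named CC, CXC, XC or CX3C after the spacing of the first cysteines, and one receptor often binds several ligands. In the colon, epithelial cells, stromal cells and macrophages make them, and they place T cells, monocytes, dendritic cells and neutrophils in the mucosa. The atypical receptors bind chemokines without G protein signaling and remove them.

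Signals were scaled so that the trimmed mean of each array was 2500, and the log2 ratio is that of the EP4 cKO array over the Villin-Cre array. Where the scanner software called a probe well above background on 1 array only, the other array's level was replaced by the higher of the probe's own signal and the lowest signal that was well above background there (125 for Villin-Cre and 57.8 for EP4 cKO). Such a ratio is called a bound and given as "at least". The gene was counted at a log2 ratio of 0 where the bound did not exceed 1. For Cxcr3, Cx3cr1 and the brighter probe of Cxcr6 the probe's own signal was the higher level. Their ratios are those of the signals read, given without "at least", and could be smaller or larger. For a gene with several probes, the one with the highest mean signal among those with a value was used. Ptger4, which the flox allele targets, was read at 6227 for Villin-Cre and 5661 for EP4 cKO by its brighter probe (log2 ratio −0.14) and at 393 and 592 by the other (log2 ratio 0.59). In whole colon these probes did not separate the arrays by genotype, and whether they lie within the deleted part is not given in the sources used here. All directions below therefore rest on the labels, and EP4 cKO stands for the array labelled EP4 cKO.

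Of the 74 probes, 21 were well above background on both arrays, 14 on the EP4 cKO array only, 0 on the Villin-Cre array only and 39 on neither. At the level of genes, 28 of 58 (48.3%) had a value, while 64.1% of all genes did. The 28 genes were 20 of 35 ligands (57.1%) and 8 of 23 receptors (34.8%). Of the genes with a value, 39.3% of the members were well above background on the EP4 cKO array only, beside 10.2% of all genes. None of the members was so on the Villin-Cre array only, beside 2.51% of all genes. The lowest signal that passed was higher on Villin-Cre (125) than on EP4 cKO (57.8). A dim gene could thus pass on EP4 cKO alone without being brighter there. Ccr9 did, with 120 on Villin-Cre and 86.7 on EP4 cKO, while Ccl11, with 122 and 12.1, passed on neither. The shares were not compared at matched signal, so no trait of the members is read from them.

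**Figure D1:**
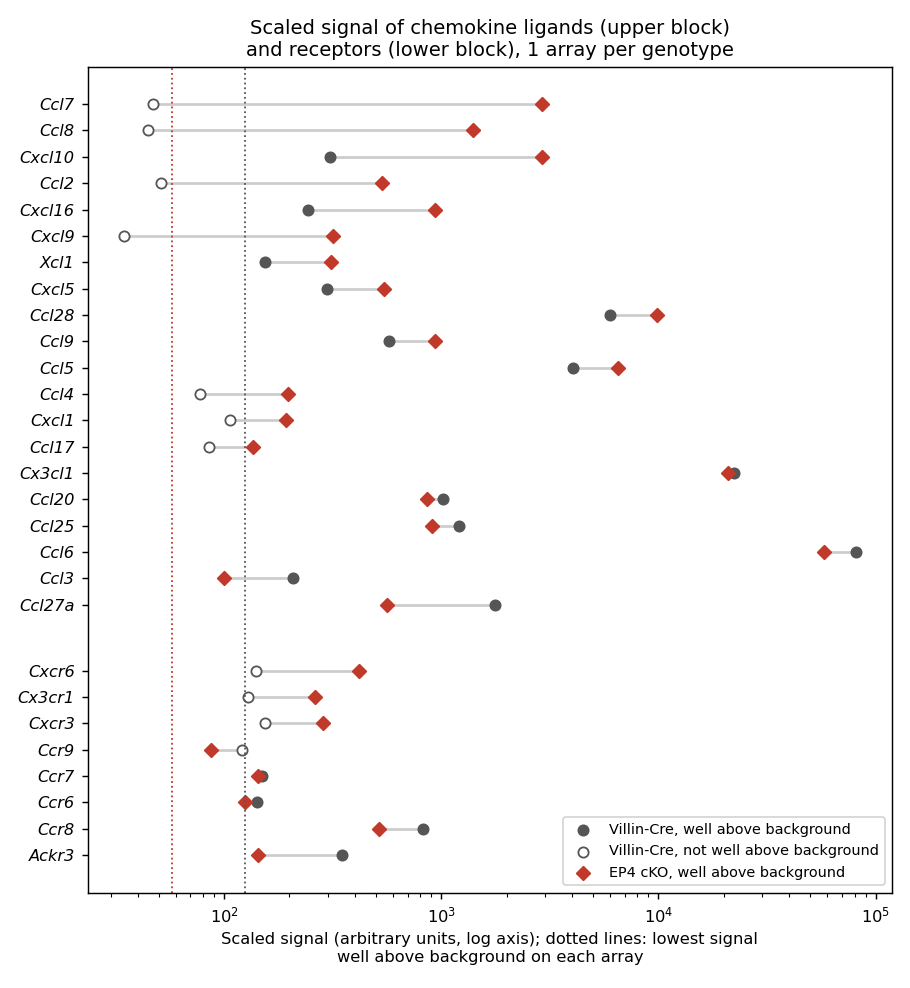
Scaled signal (log axis, arbitrary units, trimmed mean of each array 2500) of the 28 genes with a value, ligands above and receptors below, with circles for Villin-Cre and diamonds for EP4 cKO. Open circles were not well above background, and dotted lines mark the lowest signal well above background on each array (125 for Villin-Cre and 57.8 for EP4 cKO). Ccl7, Ccl8, Ccl2 and Cxcl10 have wide gaps, with EP4 cKO to the right.

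More than 2-fold differences were found in 12 of the 28 genes. Higher on EP4 cKO were 9 (32.1%), beside 4.88% of all 14679 genes with a value, and lower were 3 (10.7%), beside 7.98% of all genes, a share close to that background. The higher genes were the ligands Ccl7, Ccl8, Cxcl10, Ccl2, Cxcl16, Cxcl9 and Xcl1 and the receptors Cxcr6 and Cx3cr1, and the lower genes were the ligands Ccl27a and Ccl3 and the atypical receptor Ackr3. Of the 9 higher genes, 6 were well above background on EP4 cKO only, and Cxcl10, Cxcl16 and Xcl1 were measured on both arrays. Among the 17 members measured on both arrays, 3 were higher and 3 lower, beside 4.05% and 6.26% of all 12808 genes measured on both. The split of 9 higher and 3 lower was 6 and 1 after background correction by normexp with quantile normalization, 11 and 1 after a loess correction on signal, and 18 and 0 when the arrays were scaled to the E1A control spots, a scaling chosen after seeing the data that moved the median of all genes by 0.99 on the log2 scale. With no filter on dim probes the split turned to 10 higher and 22 lower.

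The median log2 ratio of ligands was 0.69 over the 20 with a value, and it was 0.69 over the 13 measured on both arrays. That of receptors was −0.03 over 8 genes and −0.44 over the 4 measured on both arrays, and that of all genes was −0.10. Of the ligands with a value, 7 (35%) were more than 2-fold higher and 2 (10%) lower, and of the receptors, 2 (25%) were higher and 1 (12.5%) lower. CC ligands counted 13 with a value, of which 3 were higher and 2 lower, with a median log2 ratio of 0.65, or −0.33 over those measured on both arrays. CXC ligands counted 5 with a value, of which 3 were higher and 0 lower, with a median of 1.33.

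**Figure D2:**
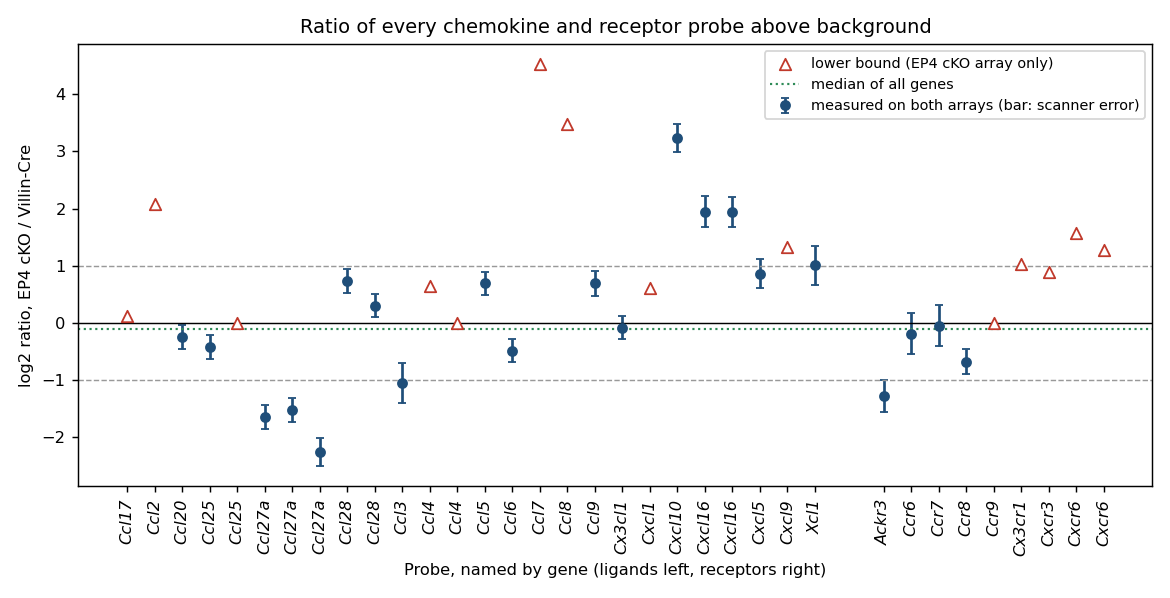
Log2 ratio of EP4 cKO over Villin-Cre for each member probe well above background on at least 1 array, ligands on the left and receptors on the right. Filled points were measured on both arrays, with bars for the scanner software's error. Open triangles were well above background on EP4 cKO only (at 0 where the bound did not exceed 1). Dashed lines mark 2-fold and the dotted line is the median of all genes (−0.10). Ccl7 (at least 4.53) lies at the upper end and the Ccl27a probes (−1.52 to −2.26) lie at the lower end.

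Sequences just upstream of the genes are shown for members that the results turn on, to place the measured differences beside the letters of their promoters. RefSeq promoter windows of GRCm38.p6, running from 250 bases before to 50 bases after the gene start, were at hand for 44 member genes and for 6 of the 9 higher genes. Each is printed 5′ to 3′ on the strand of the gene. Capitals mark a match to the core of the interferon-stimulated response element (ISRE), the letters GAAA, any 2 bases and GAAA again, searched on both strands like the other motifs. The windows are those of Cxcl10 (chr5:92348840-92349139, minus strand), Cxcl9 (chr5:92328030-92328329, minus strand), Ccl8 (chr11:82114935-82115234, plus strand) and Cxcr6 (chr9:123806227-123806526, plus strand).
Cxcl10: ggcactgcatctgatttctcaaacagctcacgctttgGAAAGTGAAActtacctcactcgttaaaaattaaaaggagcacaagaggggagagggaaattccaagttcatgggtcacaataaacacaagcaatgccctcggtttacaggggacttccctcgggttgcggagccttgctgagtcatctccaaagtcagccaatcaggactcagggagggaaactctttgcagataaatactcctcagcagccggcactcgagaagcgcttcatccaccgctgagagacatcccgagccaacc
Cxcl9: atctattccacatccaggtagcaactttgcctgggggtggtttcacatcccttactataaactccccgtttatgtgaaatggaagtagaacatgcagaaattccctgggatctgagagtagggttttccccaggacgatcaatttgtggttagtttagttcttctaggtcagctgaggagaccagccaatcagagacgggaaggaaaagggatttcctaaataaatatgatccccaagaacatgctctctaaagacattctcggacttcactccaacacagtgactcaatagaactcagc
Ccl8: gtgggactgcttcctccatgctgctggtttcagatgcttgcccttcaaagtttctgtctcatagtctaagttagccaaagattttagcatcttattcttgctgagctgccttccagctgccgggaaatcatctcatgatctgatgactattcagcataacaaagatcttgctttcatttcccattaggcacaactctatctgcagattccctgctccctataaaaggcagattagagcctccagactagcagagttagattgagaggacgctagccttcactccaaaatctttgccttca
Cxcr6: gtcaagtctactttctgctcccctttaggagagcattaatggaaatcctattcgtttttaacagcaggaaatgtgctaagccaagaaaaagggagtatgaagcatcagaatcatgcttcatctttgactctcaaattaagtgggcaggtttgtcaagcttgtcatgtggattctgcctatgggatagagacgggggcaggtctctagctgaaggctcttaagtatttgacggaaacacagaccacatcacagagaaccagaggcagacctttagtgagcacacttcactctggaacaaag
The match in Cxcl10 begins 213 bases before the gene start. The ISRE core is in 3.44% of all 32851 promoter windows, and among members also in those of Ccl19 and Cxcl14, neither of which was well above background. Of the 6 higher genes with a window, Cxcl10 was the only one with a match to any of the 3 motifs searched. The second motif, TTCNNNGAA, the form STAT factors bind, is in 8.3% of all windows, and among members in those of Ccl17, Ccr1l1, Ccr6 and Cxcl14.

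The third motif, the NF-kappaB site in the form GGGA, any base and TTTCC, is in 0.411% of all windows, and among members in those of Ccr3 and of the neighbouring CXC genes Cxcl1, Cxcl2 and Cxcl3. These ligands of CXCR2 attract neutrophils and lie in 1 cluster on chromosome 5. A stretch of each is shown, with the match in capitals, because the 3 genes share it while 1 of them had a value. The stretches are those of Cxcl1 (chr5:90891159-90891198), Cxcl2 (chr5:90903787-90903826) and Cxcl3 (chr5:90786013-90786052), all on the plus strand.
Cxcl1: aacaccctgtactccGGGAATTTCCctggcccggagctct
Cxcl2: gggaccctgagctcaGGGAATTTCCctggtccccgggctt
Cxcl3: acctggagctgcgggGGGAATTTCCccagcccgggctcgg
Cxcl1 was read at 106 on Villin-Cre, not well above background, and at 192 on EP4 cKO, a log2 ratio of at least 0.62. Cxcl2 (28.2 and 34.9) and Cxcl3 (26.3 and 12.1) were not well above background on either array, so the same letters stood before 1 gene with a value and 2 without. A match in these windows is a description of letters and not of binding.

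The ligands of CXCR3, the receptor of activated T cells and natural killer cells, included the CXC gene with the widest difference. Cxcl10, which interferon induces, was read at 308 on Villin-Cre and 2915 on EP4 cKO, a 9.45-fold difference (log2 ratio 3.24 ± 0.24, the scanner software's own error within the arrays). Its neighbour Cxcl9, induced by interferon gamma, was read at 34.6, not well above background, and at 316, which makes it at least 2.52-fold higher. The receptor Cxcr3 was read at 154, not well above background, and at 285. This is 1.86-fold higher by the signals read, short of 2-fold under the scaling used. Of these 3 genes only Cxcl10 was measured on both arrays, and Cxcl9 and Cxcr3 have a value through the EP4 cKO array alone. Cxcl10 overlaps Art3 in the annotation.

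The pair of CXCL16, a chemokine anchored in the membrane, and CXCR6, its receptor on memory and tissue-resident T cells, was the only one of which both genes were more than 2-fold higher under the scaling used. Cxcl9 and Cxcl10 with Cxcr3 passed as well with scaling to the 75th percentile and with loess, where Cxcr3 was at 1.05 and 1.19, and no pair passed with normexp. Cxcl16 was read by 2 probes, at 245 and 940 by one (log2 ratio 1.94 ± 0.27) and at 228 and 881 by the other (1.95 ± 0.26), 3.84-fold and 3.86-fold higher on EP4 cKO. Cxcr6 was read at 140 and 416 by one probe, 2.96-fold higher by the signals read. The other read 66.6 and 302, at least 2.41-fold higher. Neither Cxcr6 probe was well above background on Villin-Cre. All 4 probes of this pair stood higher on EP4 cKO. The call of Cxcr6 was lost after normexp with quantile normalization, where its log2 ratio was 0.94. Cxcl16 overlaps Zmynd15 and Cxcr6 overlaps Fyco1 in the annotation.

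XCL1, released by activated T cells and natural killer cells, attracts the dendritic cells that carry XCR1. Xcl1 was read at 154 and 309 (log2 ratio 1.005 ± 0.34), which is 2.01-fold and at the edge of the 2-fold limit. After normexp its log2 ratio was 0.69, and Xcr1 was well above background on neither array (30.1 and 13.6). CX3CL1, the membrane-bound chemokine also called fractalkine, was bright on both arrays at 22286 and 20976 (log2 ratio −0.09 ± 0.20). Its receptor Cx3cr1, which marks gut macrophages, was read by its brighter probe at 128, not well above background, and 262. This is 2.04-fold higher by the signals read. The other Cx3cr1 probe was well above background on neither array (30.7 and 13.8). Here the ligand kept its level within the error and the receptor was called higher, though with a log2 ratio of 0.59 after normexp.

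The genes of the widest bounds, Ccl7, Ccl8 and Ccl2, encode the monocyte attractants MCP-3, MCP-2 and MCP-1. Ccl7 was read at 47.0 and 2895, at least 23.1-fold higher on EP4 cKO, Ccl8 at 44.5 and 1404, at least 11.2-fold higher, and Ccl2 at 51.2 and 531, at least 4.24-fold higher. None of the 3 was well above background on Villin-Cre, and all 3 were on EP4 cKO. CCR2, the monocyte receptor that binds CCL2 and CCL7, was well above background on neither array (38.0 and 18.4). Ccr8, which binds mouse CCL8 and is carried by T cells of the skin and by regulatory T cells, was read at 825 and 515 (log2 ratio −0.68 ± 0.21), lower on EP4 cKO where Ccl8 was higher, but at 0.38 with scaling to the E1A spots, chosen after seeing the data.

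Other CC ligands, which attract macrophages and T cells, differed less. Ccl5, made by T cells, was read at 4034 and 6514 (log2 ratio 0.69 ± 0.20), Ccl9 at 576 and 931 (0.69 ± 0.22) and Ccl6, among the brightest members, at 80850 and 57682 (−0.49 ± 0.20). None of these passed 2-fold. Ccl4 was read at 77.6 and 196 by one probe, at least 1.56-fold higher, and at 77.4 and 108 by another, whose bound did not exceed 1. Its neighbour Ccl3 went the other way, at 208 and 99.9 (log2 ratio −1.05 ± 0.35), and the genes overlap each other in the annotation. Ccl3 lay among the dimmest 10% of probes measured on both arrays, of which 21.1% were more than 2-fold lower and 0.121% higher, and it was at −0.90 with scaling to the 75th percentile, −0.75 after loess and −0.33 after normexp.

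Among the chemokines that mucosal epithelium is known to make, Ccl28, which brings plasma cells that secrete IgA to the colon through CCR10, was read at 5953 and 9891 by one probe (log2 ratio 0.73 ± 0.20) and at 1055 and 1300 by another (0.30 ± 0.21). Both probes were within 2-fold, and its receptor gene Ccr10 was well above background on neither array (31.6 and 17.9). Ccl20, which attracts cells with CCR6 to lymphoid follicles of the gut, was read at 1023 and 864 (−0.24 ± 0.21) and its receptor Ccr6 at 142 and 124 (−0.19 ± 0.36). Ccl25, the ligand by which T cells with CCR9 home to the small intestine, was read at 1208 and 904 (−0.42 ± 0.21) by its brightest probe and at 107 and 73.6 by another, well above background on EP4 cKO only and with a bound that did not exceed 1. Its receptor Ccr9 was read at 120 and 86.7, with a bound of the same kind. None of these epithelial ligands or their receptors passed 2-fold in either direction.

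Ccl27a was the lowest relative to Villin-Cre among the members with a value, and its 3 probes agreed in direction. They were read at 1768 and 564 (log2 ratio −1.65 ± 0.21), at 1395 and 485 (−1.52 ± 0.21) and at 718 and 150 (−2.26 ± 0.25), which is 3.13-fold, 2.87-fold and 4.79-fold lower on EP4 cKO. CCL27 is known as a skin chemokine that binds CCR10. The gene overlaps Il11ra1 in the annotation and has a copy, Ccl27b, so which transcript the probes read cannot be told apart here. With scaling to the E1A spots, chosen after seeing the data, its log2 ratio was −0.59.

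Ackr3, an atypical receptor of endothelial and stromal cells that removes CXCL12, was read at 350 and 144 (log2 ratio −1.28 ± 0.28), 2.43-fold lower on EP4 cKO. It lay in the next dimmest 10% of probes, of which 12.6% were more than 2-fold lower and 2.67% higher, and its log2 ratio was −0.99 after loess and −0.53 after normexp. Cxcl12 itself, a stromal chemokine, was not well above background by either of its probes (79.9 and 12.5, and 34.1 and 12.1). The list of fibroblast markers was lower on the same array, with 4 of the 4 genes that had a value past 2-fold, a median log2 ratio of −4.77 and a summed signal of 11493 on Villin-Cre and 262 on EP4 cKO. Of these genes of the fibroblast matrix, Dcn was at −5.77 and Col1a2 at −5.03, and Col1a1 and Lum, well above background on Villin-Cre only, had bounds of −4.50 and −3.15. The part of this shift in the values of Ackr3 and of the stromal chemokines was not tested. In whole tissue, fewer cells of a type and less RNA per cell cannot be told apart.

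The remaining members with a value were Cxcl5, Ccl17 and Ccr7, none of them called past 2-fold. Cxcl5, a neutrophil attractant that epithelium can make, was read at 299 and 543 (log2 ratio 0.86 ± 0.26), and Ccl17, a ligand of CCR4 from dendritic cells, at 85.6 and 136, at least 1.09-fold higher. Ccr7, which guides T cells and dendritic cells to lymph nodes, was read at 149 and 144 (−0.05 ± 0.36) by one probe and was not well above background by the other (29.0 and 46.3). Cxcl5 passed 2-fold, at a log2 ratio of 1.02, when the arrays were scaled to the 75th percentile, and so did Cxcr3, at 1.05. Both also passed with loess (1.12 and 1.19) but not with normexp (0.77 and 0.68). With the settings added after seeing the data, they passed with loess over probes of both arrays (1.12 and 1.29) and E1A (1.92 and 1.95). With that second loess Ccl4 (1.33) and Cxcl1 (1.22) passed as well.

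No probe was well above background on either array for 15 ligands and 15 receptors. The ligands were Ccl1, Ccl11, Ccl12, Ccl19, Ccl21a, Ccl22, Ccl24, Ccl26, Cxcl2, Cxcl3, Cxcl12, Cxcl13, Cxcl14, Cxcl15 and Cxcl17, with signals of 25.8 to 122 on Villin-Cre and 12.1 to 55.9 on EP4 cKO. The receptors included Ccr1, Ccr1l1, Ccr2, Ccr3, Ccr4, Ccr10, Cxcr1, Cxcr2, Cxcr4, Cxcr5, Xcr1, Ackr1, Ackr2 and Ackr4, with signals of 25.0 to 51.6 and 11.47 to 44.4. The list holds the CXCR2 arm of neutrophil recruitment apart from Cxcl1 and Cxcl5, the lymphoid chemokines that organise follicles (Cxcl13 with Cxcr5, and Ccl19 and Ccl21a) and the eosinophil attractants Ccl11, Ccl24 and Ccl26 with Ccr3. No difference can be read for these genes at this signal, and none of them is shown to be absent.

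Ligands were set beside their receptors in 35 known pairs, of which 34 had both genes on the array. Both partners had a value in 7 pairs, the ligand alone in 15, the receptor alone in 4 and neither in 8. Of the 7 pairs, 1 was higher in both partners (Cxcl16 with Cxcr6), 3 had a higher ligand and a receptor not called past 2-fold (Cxcl9 and Cxcl10 with Cxcr3, and Ccl8 with Ccr8) and 2 had no partner called (Ccl20 with Ccr6 and Ccl25 with Ccr9). Cxcr3 and Ccr9 were well above background on EP4 cKO only. The value of Cxcr3 is the ratio of its own signals and could be smaller or larger. Ccr9 was counted at 0, and its own signals were lower on EP4 cKO (120 for Villin-Cre and 86.7 for EP4 cKO). The last was Cx3cl1 with Cx3cr1, in which the receptor alone was higher. In 3 further pairs a ligand was higher while its receptor was well above background on neither array (Ccl2 and Ccl7 with Ccr2, and Xcl1 with Xcr1).

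**Figure D3:**
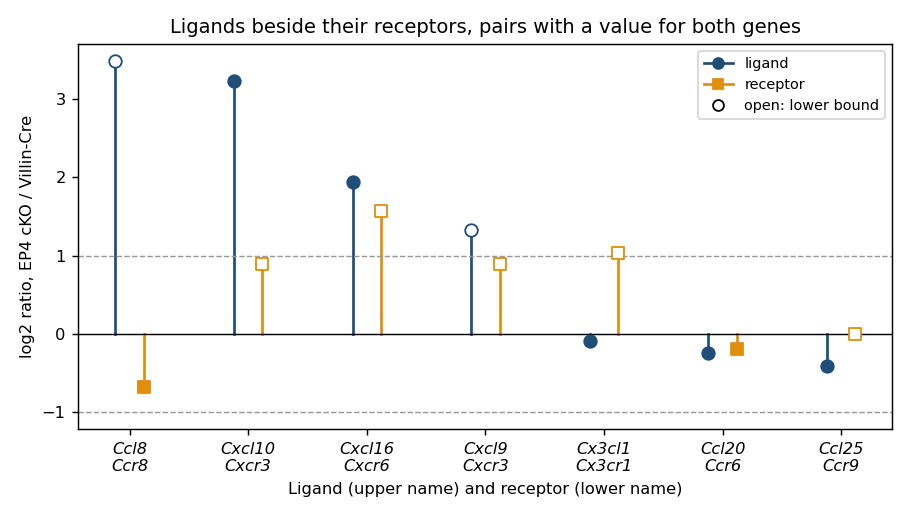
Log2 ratio (EP4 cKO over Villin-Cre) of the ligand (circles) and of its receptor (squares) for the 7 pairs with a value for both. Open symbols were well above background on EP4 cKO only (at 0 where the bound did not exceed 1), and dashed lines mark 2-fold. In the pair of Cxcl16 and Cxcr6 both partners lie beyond the upper line.

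Chemokine genes lie in clusters on the chromosomes, and the values of neighbours are given by cluster. In the chromosome 11 cluster of Ccl2, Ccl7, Ccl11, Ccl12, Ccl8 and Ccl1, 3 genes were more than 2-fold higher and the other 3, including Ccl11 and Ccl12, were not well above background. In the other chromosome 11 cluster, of Ccl5, Ccl9, Ccl6, Ccl3 and Ccl4, 0 of 5 genes were higher, 1 was lower and 4 were not called, among them Ccl4, which is a lower bound. Cxcl9 and Cxcl10, neighbours on chromosome 5, were both higher, and the third gene of that cluster, Cxcl11, is annotated as a transcribed pseudogene in the reference.

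**Figure D4:**
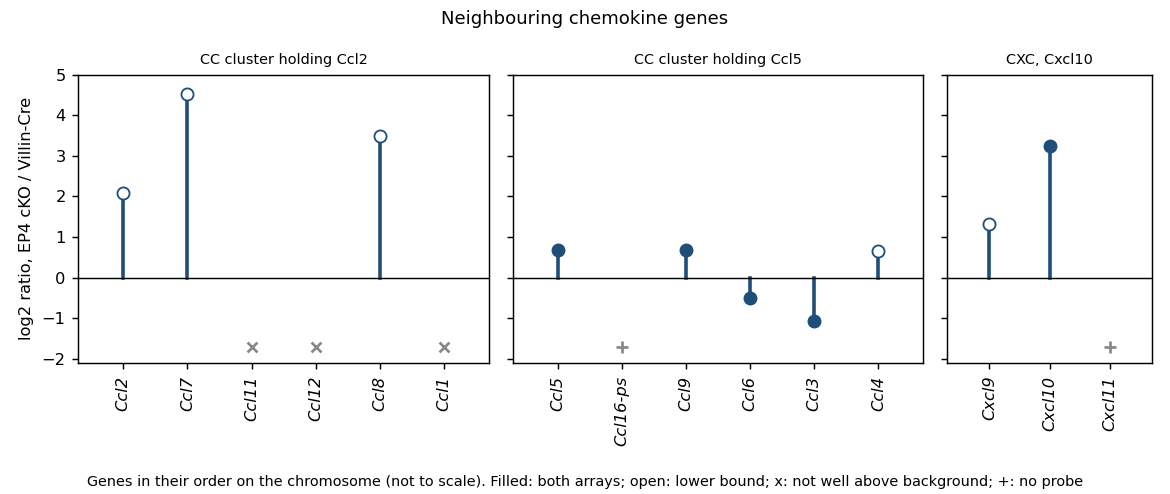
Log2 ratio (EP4 cKO over Villin-Cre) of genes in 3 clusters, in their order along the chromosome and not to scale. Filled points were measured on both arrays, open points are lower bounds, a cross marks a gene not well above background on either array and a plus one without a probe. Ccl2, Ccl7 and Ccl8 stand above 2 while Ccl5, Ccl9, Ccl6, Ccl3 and Ccl4 lie between −1.05 and 0.69.

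Genes that act beside or behind chemokine receptors were read from a list of 36, of which 32 had a value. Of these, 6 were more than 2-fold higher and 1 was lower, with a median log2 ratio of 0.29. Over all genes with a value, 4.88% were higher and 7.98% lower, with a median of −0.10. Cd74, the invariant chain of MHC class II, which also binds the chemokine-like factor MIF, was read at 994 and 125911 (log2 ratio 6.99). Ccrl2, which holds chemerin at the cell surface, was read at 306 and 1121 (1.87), Rac2, a GTPase of leukocyte migration, at 328 and 922 (1.49), and its exchange factor Prex1 at 420 and 999 (1.25). Pf4, the platelet chemokine CXCL4 that lies outside the naming rule for members, was read at 847 and 1800 (1.09), and Pik3cg, the kinase subunit that chemokine receptors engage in leukocytes, at 27.2 and 339, a log2 ratio of at least 1.44. The lower gene was Arrb1, an arrestin that ends receptor signaling, at 12059 and 4971 (−1.28). Ppbp, Fpr1, C5ar1 and Grk3 were not well above background on either array.

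Markers of the cells that carry these receptors were read beside the members. T cell markers held 1 of 7 genes with a value higher and 0 lower (Cd3g, log2 ratio 1.28), and their summed signal was 13169 on Villin-Cre and 13830 on EP4 cKO, or 6420 and 6189 without Cd4. Of macrophage and monocyte markers 1 of 6 was higher (Ly6c2, 2.50), with a summed signal of 130246 and 460713, or 64630 and 88407 without Ly6c2, while Csf1r was at −0.79 and Adgre1 was not well above background. Dendritic cell markers summed to 369 and 709, with Itgax at 1.73 as 1 of 2 genes, and to 217 and 204 without it. Neutrophil markers had S100a9 at 1.25 and S100a8 at signals of 84.9, not well above background, and 355, as 2 of 3 with a value, and summed to 106969 and 82794, or to 517 and 1166 without Csf3r. Epithelial markers had 1 of 6 higher (Krt20 at 146575 and 510711, log2 ratio 1.80) and 0 lower, with summed signals of 1224380 and 1736500. Mast cell markers had 2 of 5 higher, Mcpt4 at 6.06 and Cpa3 at a bound of 2.17, while Kit was at −0.71. Their summed signals of 2932 and 13583 were 2766 and 2490 without Mcpt4. Kit was read at 2615 and 1604, and the signals of the other 4 genes were higher on EP4 cKO. B cell and plasma cell markers (46763 and 62441) and endothelial markers (1162 and 1178) had 0 genes past 2-fold, and smooth muscle had 1 of 4 lower (Cnn1, −2.73), with sums of 25924 and 40010. The part of these shifts in the chemokine values was not tested.

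The calls were repeated under the other ways of processing. Ccl2, Ccl7, Ccl8, Cxcl9, Cxcl10, Cxcl16 and Ccl27a, 7 of the 12 called genes, stayed past 2-fold in the same direction with scaling to the 75th percentile, normexp, loess, no filter on dim probes and the mean of a gene's probes, and, where they were measured there, with both arrays required. Cxcr6, Cx3cr1 and Xcl1 did not with normexp, Ackr3 not with normexp and loess, and Ccl3 not with these and the 75th percentile.

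**Figure D5:**
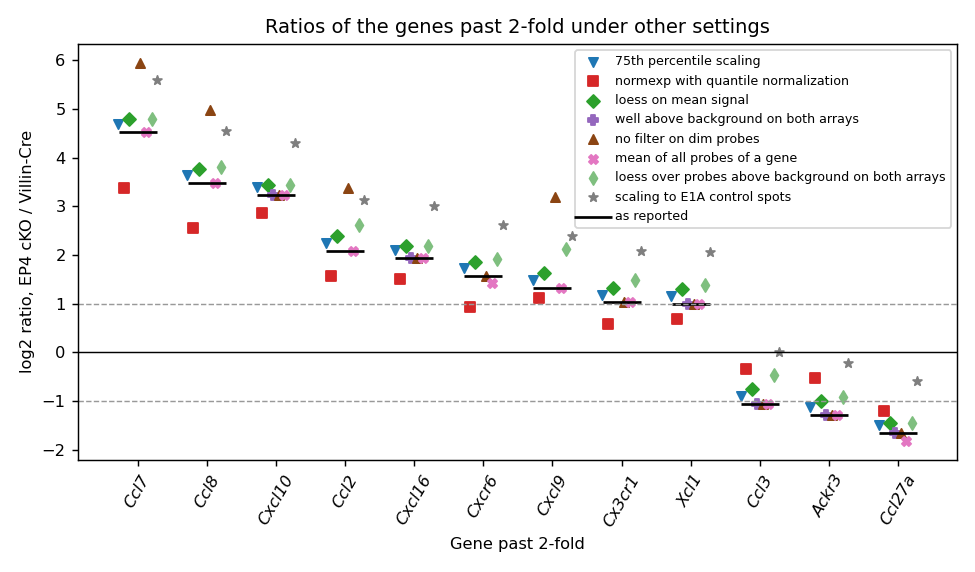
Log2 ratio (EP4 cKO over Villin-Cre) of the 12 genes past 2-fold, 1 column per gene, with a black bar for the value as reported, 1 symbol per other setting and dashed lines at 2-fold. Every symbol of Ccl7, Ccl8, Cxcl10, Ccl2, Cxcl16 and Cxcl9 lies above the upper line. E1A scaling adds the same 1.06 to the log2 ratio of each of the 12, so by construction all stand higher than as reported. Ccl27a (−0.59) and Ackr3 (−0.22) lie within 2-fold there.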

How the data were processed

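Total RNA of whole colon was labelled with Cy3 and hybridised to 2 arrays, 1 per genotype, assigned from the labels. The authors deposited scanner output (Feature Extraction 12.0.3.1 per the file headers, 11.5.1.1 in the submitters' processing notes). The deposited intensity used here is the background-subtracted processed signal of each spot, with its error and flags. Here, spots marked as outliers (147 and 126) and control probes were left out and replicate spots averaged. The scaling that the methods describe was then repeated: each array was multiplied by a factor (3.45 for Villin-Cre, 2.68 for EP4 cKO) that set its trimmed mean, without 2% at each end, to 2500.

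Probes were named through RefSeq accessions against GRCm38.p6, which matched 32989 of 56593 (58.3%). Each array had 45.4% (Villin-Cre) or 51.6% (EP4 cKO) of probes well above background and 0 saturated spots. Over 289 probes with replicate spots, the log2 ratio had a median SD of 0.0347 between spots. Every member had 1 spot per probe, so its error is that of the scanner software, with a median of 0.22 in log2 ratio over the member probes measured on both arrays. This error does not cover the spread between mice, and the number of arrays limits the precision.

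The threshold was 2-fold, with no test. One member without a value is not reported here. All other members are named, with all genes past 2-fold of the list of receptor signaling and of the marker lists. Other single genes of these lists and those below background were picked after their values were seen. Members, lists and pairs were chosen with earlier results of these data known. Alternatives were scaling to the 75th percentile, limma's normexp (offset 50, median signals) with quantile normalization, loess on signal (span 0.3), probes above background on both arrays only, no filter on dim probes, the mean of a gene's probes, and limits of 1.5-fold and 3-fold. Loess over probes measured on both arrays and scaling to 7 E1A control probes were added after seeing the data. Promoter windows were taken from RefSeq. The calculation was tested on simulated data and run with Python 3.11.15, numpy 2.4.6, pandas 2.3.3, statsmodels 0.14.6, R 4.3.3 and limma 3.58.1.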

Additional observations from a re-analysis of the deposited data

How the results depend on the processing

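No paired analysis was possible because each genotype had 1 array, and for the same reason no array could be left out. Selecting members by gene name instead of accession was not run. Of the reported 7 ligands higher, 3 were left among genes measured on both arrays, 13 passed at 1.5-fold and 14 with E1A scaling. Of the 2 ligands lower, 1 was left with the 75th percentile, normexp, loess, loess over probes of both arrays, or a 3-fold limit, 0 with E1A, and 12 without the filter on dim probes. Of the 2 receptors higher, 0 were left with normexp, on both arrays or at 3-fold, and 4 passed with E1A. Of the 1 receptor lower, 0 were left with normexp, either loess, 3-fold or E1A, 2 passed at 1.5-fold and 10 without the filter. The median log2 ratio of ligands (0.69) was 0.85 with the 75th percentile, 0.92 with loess, 1.01 with loess over probes of both arrays, 1.75 with E1A, 0.65 with the mean of probes and −0.083 without the filter. That of receptors (−0.03) was 0.052, 0.19, 0.49 and 0.94 with the first 4 of these, 0.10 with normexp, −0.44 on both arrays and −0.82 without the filter. Without the filter, signals below background enter the ratio, and 10 members were higher and 22 lower. E1A scaling added the same 1.06 to the log2 ratio of every gene measured on both arrays. Any such gene with a reported ratio less than 1.06 below 0 therefore changed sign. These were Ccl3 (0.0027) and, among members not called, Ccl6 (0.57), Ccl20 (0.81), Ccl25 (0.64), Ccr8 (0.38), Ccr6 (0.87), Ccr7 (1.005) and Cx3cl1 (0.97). Ccr6 also changed sign with both loess corrections (0.12 and 0.45), Ccr7 with every other scaling or correction (0.10 to 0.54) and Cx3cl1 with the 75th percentile (0.069). The median of all genes shifted by 0.10 with the 75th percentile, normexp and loess, 0.14 with the second loess, 0.99 with E1A and −0.27 without the filter. The cause of the other changes was not tested. Signal over background limits the reading: 30 of 58 members gave no ratio.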
